A study of Mus musculus with 6 samples.

Results

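Among the 13724 gene entries of an RPKM table from warm-exposed mouse hypothalamus, 42 belonged to the machinery of cilia. They were taken by symbol: entries named Dnahc, Dnaic, Tekt, Rsph, Spag, Ift or Bbs with a number (Dnah and Dnali symbols were also searched), and Foxj1, Ccdc153, Dynlrb2 and Tmem212. Of the 42, 18 formed a motile axoneme group, 20 formed a transport group (12 Ift and 8 Bbs genes), and Spag4, Spag5, Spag7 and Spag9 were kept in neither. The animals were wild type C57Bl6/J mice, and both groups compared came from warm-challenged animals, so no other temperature was measured. Per the labels' protocols the anterior hypothalamus was taken from brain sections of 0.5 mm, and the tissue is labelled as preoptic neurons. Each of 3 numbered warm challenges gave a library of total RNA (input) and a library of RNA co-precipitated with ribosomes whose protein S6 was phosphorylated at sites 244 and 247 (immunoprecipitate, IP), which makes 6 libraries. The labels give neither the age of the mice nor how many were pooled, and nothing says that the challenges used separate animals, so p-values measure only the spread between these libraries.

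Motile cilia are the beating hairs of ependymal cells, which line the brain ventricles, and of related epithelia. Their axoneme holds dynein arms that drive the beat, radial spokes and a central pair that control it, and tektin filaments in the doublet walls, and the transcription factor Foxj1 switches this programme on. Primary cilia are single, non-beating antennae found on most neurons and glia. Intraflagellar transport (Ift) trains build both kinds of cilium, and the BBSome, a coat of Bbs proteins, carries membrane receptors out of and into them.

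RFX transcription factors, of which Rfx3 acts in ciliated cells, bind the X-box, an inverted repeat whose half-site was searched here as GTTGCC on either strand. RefSeq promoters (GRCm38.p6, 250 bases before to 50 after each start) were matched for 35 of the 42 members, while Foxj1, Ift122, Ift80, Ift81, Rsph1, Rsph4a and Spag1 had no entry. The half-site stood in 15 of the 35, or 42.9%, against 14.1% of 27025 genes with a promoter. It was found in 7 of 14 axoneme genes and 8 of 17 transport genes, so both groups carried it in similar shares. A pair of half-sites (GTNNCC and GGNNAC facing each other, 0 to 3 bases apart, which overlaps the single half-site search) stood in 6 of the 35 and in 4.38% of all genes, and the forkhead letters GTAAACA on either strand in 0 of 35 and 4.05%. A match is a description of the letters, not of binding. The stretches below show the match in capitals, with up to 40 bases on each side, all before the start site. Ccdc153 and Dynlrb2 are shown because they had the most negative folds of all members, and Bbs7 and Ift57 as the transport genes with a half-site pair before the start.
Ccdc153 (GRCm38.p6, chr9:44240485-44240570, plus strand): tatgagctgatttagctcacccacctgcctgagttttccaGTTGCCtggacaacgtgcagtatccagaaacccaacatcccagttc
Dynlrb2 (GRCm38.p6, chr8:116504924-116505009, plus strand): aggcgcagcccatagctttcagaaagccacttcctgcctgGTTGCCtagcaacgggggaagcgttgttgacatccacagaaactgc
Bbs7 (GRCm38.p6, chr3:36613457-36613550, minus strand): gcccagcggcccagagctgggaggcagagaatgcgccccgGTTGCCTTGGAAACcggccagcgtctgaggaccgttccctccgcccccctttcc
Ift57 (GRCm38.p6, chr16:49699194-49699286, plus strand): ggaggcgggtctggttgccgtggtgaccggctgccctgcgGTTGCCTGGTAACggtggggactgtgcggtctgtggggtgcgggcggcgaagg
The capitals begin 152 bases before the start in Ccdc153, 51 in Dynlrb2, 121 in Bbs7 and 60 in Ift57, which holds another pair beginning 87 bases before it.

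RPKM is a read count scaled to gene length and library size, so levels can be compared between genes. Summed RPKM lay between 374710 and 496120 per library, and the absolute depth is unknown. Folds are differences of log2(RPKM + 1), IP minus input, and understate changes of weakly expressed genes. They were tested with limma over the 12328 entries with at least 1 RPKM in 3 or more libraries, and a gene was called at a Benjamini-Hochberg adjusted p under 0.05. The median fold of all tested entries was -0.18, and subtracting each library's median (median scaling) moved it to -0.01, so folds are read against -0.18. Neuron markers were abundant, with Snap25, a synaptic vesicle fusion gene, at 2063 to 5392 RPKM, and Gad2, a GABA-synthesizing enzyme, at 666.9 to 911.8 RPKM. Glial genes were present as well, with the astrocyte gene Aldoc at 189 to 277 RPKM and the myelin gene Mbp at 248 to 291 RPKM in input and 96.2 to 133 RPKM in IP. Leaving out the library IP 1 raised the lower calls among all entries from 406 to 1250, so member calls that changed without it are given both ways. Other folds include IP 1 unless stated, and some moved without it. The fold of Ift122 went from -0.01 to -0.34 and that of Tekt5 from 0.54 to 0.89.

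Of the 42 members, 38 passed the filter on low values. Ccdc153 and Rsph4a were called lower in IP, 0 members were called higher, and 36 were not called. The lower calls made up 5.26% of the members tested, against 3.29% of all entries tested, and higher calls made up 0.892% of all entries. Without a filter Rsph4a alone was called, where 3.34% of all entries were. At an unadjusted p under 0.05 there were 10 of 38 members (26.3%), all with lower IP, against 19.3% of all entries lower and 5.04% higher. The share of members called is near that of all entries. In 12 of 42 members every IP library lay below every input, and in 1, Ift140, above. The lower share was 28.6%, against 23.5% of all entries, and 6.46% of all entries had every IP library above.

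**Figure D1:**
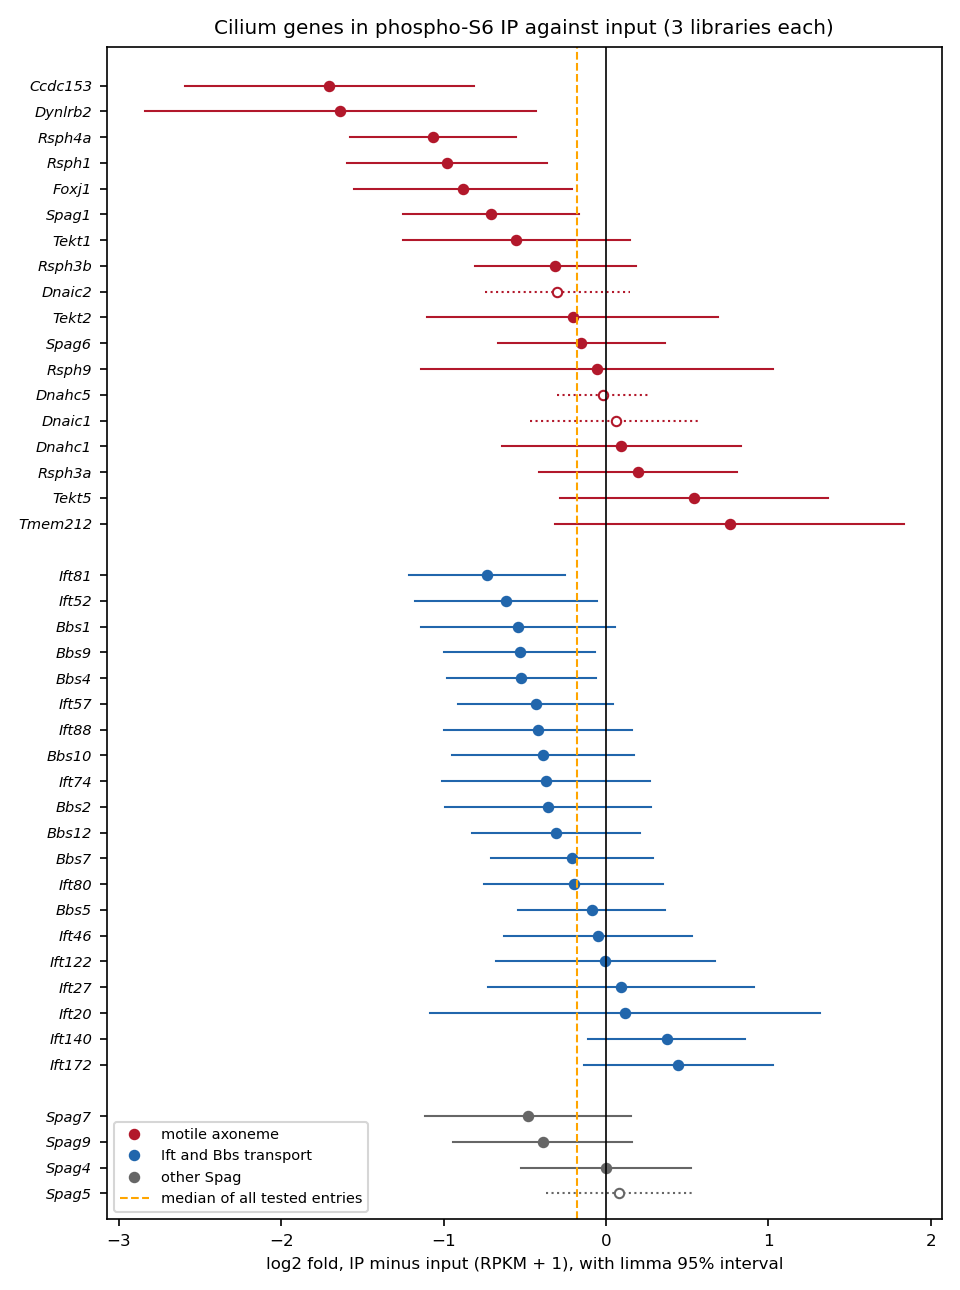
The log2 fold (IP minus input, RPKM + 1; x axis) of each of the 42 cilium genes is a point with limma's 95% interval, for 3 libraries per group; open points with dotted intervals are genes below the filter, taken from the unfiltered fit. Axoneme genes spread from -1.70 (Ccdc153) to 0.76 (Tmem212) and transport genes from -0.73 (Ift81) to 0.45 (Ift172).

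Over the 6 libraries axoneme and transport genes had nearly the same median fold, which depended on input 3, and axoneme folds spread more widely. The median was -0.31 over the 15 axoneme genes tested (-0.25 over all 18) and -0.33 over the 20 transport genes. The middle 50% of axoneme folds (all 18 listed) ran from -0.84 to 0.04 and that of transport folds from -0.46 to -0.04. In 40 further genes of motile cilia, described below, it ran from -0.58 to -0.16, and in all entries from -0.46 to 0.12. The wider spread was thus seen in the 18 members and not in that further list. Among axoneme genes 2 were called lower and 0 higher, among transport genes 0 in either direction, and 6 of 15 axoneme genes and 4 of 20 transport genes had an unadjusted p under 0.05, all lower. The transport share is near the 19.3% of all entries. Without input 3 the medians were apart, at -0.59 for axoneme and -0.26 for transport genes, and after quantile normalization they were -0.17 and -0.056. Without IP 1 they were -0.43 and -0.37. After median scaling they were -0.14 and -0.16, and 0 members were called, against 1.76% of all entries. No test of the difference between the groups was made. A fold compares IP with input and measures neither the number of cells nor the RNA per cell, and its cause was not tested.

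The 4 genes taken singly, 3 of them ependymal markers and 1 their regulator, had folds of both signs. Foxj1, the master regulator of motile cilia, stood at 5.37, 4.22 and 3.15 RPKM in inputs 1, 2 and 3 and at 2.22, 0.873 and 2.67 RPKM in IP 1, 2 and 3. Every IP library lay below every input, and the log2 fold was -0.88 (SE 0.30, adjusted p = 0.115). Ccdc153, a coiled-coil gene used as an ependymal marker, stood at 8.86, 8.74 and 3.28 RPKM in input and 1.37, 2.40 and 0.476 RPKM in IP. The groups did not overlap, all 3 challenges had the lower value in IP, and the log2 fold was -1.70 (SE 0.40, adjusted p = 0.0465). This call ended after median scaling (adjusted p = 0.0845), without a filter (0.0541) and without input 1, 2 or 3 or IP 2 or 3 (0.0538 to 0.182), and held without IP 1 (0.0440).

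Dynlrb2, a light chain that dynein motors of cilia use, stood at 18.8, 10.6 and 2.54 RPKM in input and 2.41, 2.59 and 1.20 RPKM in IP. Input 3 was far below the other inputs and overlapped the IP range, although each IP library was below its own input. Its log2 fold of -1.64 (SE 0.54, adjusted p = 0.107) was nearly that of Ccdc153, with an adjusted p of 0.0502 when the warm challenge was a block. Without input 3 it was called (log2 fold -2.34, adjusted p = 0.0395). Tmem212, a membrane protein gene used as an ependymal marker, had a fold of the opposite sign, with 1.02, 1.20 and 0.380 RPKM in input and 2.72, 4.999 and 0.333 RPKM in IP. Its level was above input in challenges 1 and 2 and slightly below it in challenge 3 (log2 fold 0.76, 95% interval -0.31 to 1.84, adjusted p = 0.362).

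**Figure D2:**
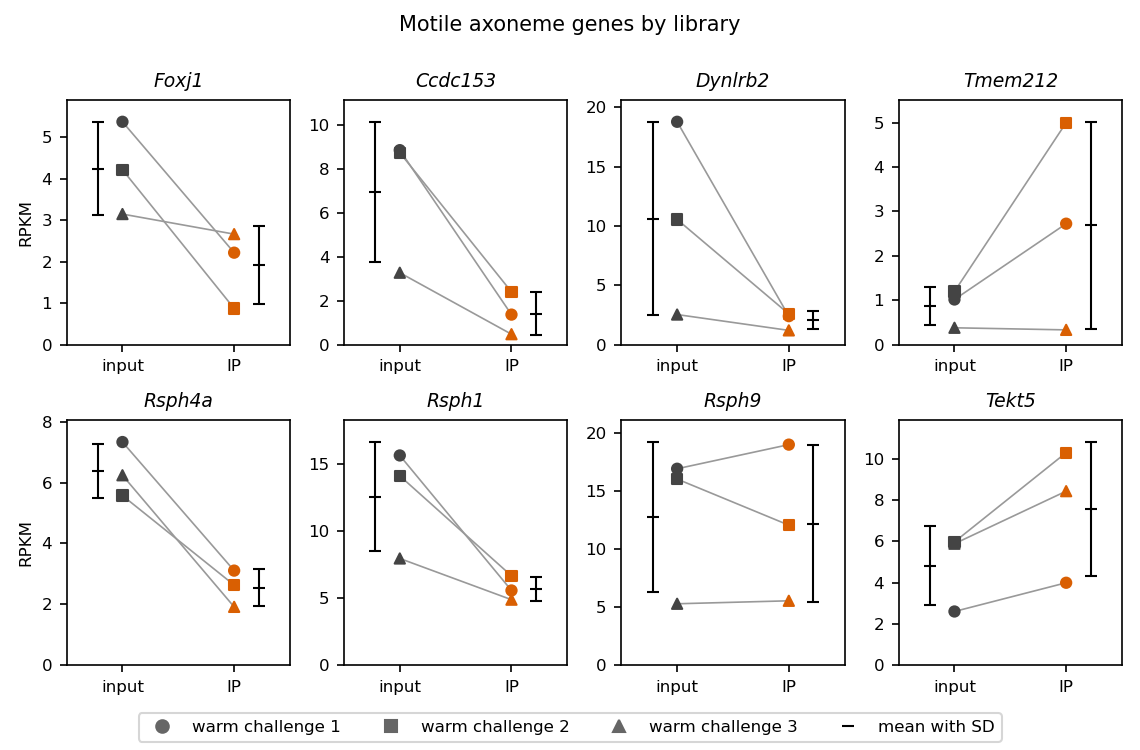
RPKM (y axis, from 0, with its own scale per gene) of 8 axoneme genes in input and IP, where each symbol is a library, grey lines join the libraries of 1 warm challenge, and bars are means with SD (n = 3). Foxj1, Ccdc153, Rsph4a and Rsph1 have every IP library below every input, while Rsph9 is low in both libraries of challenge 3.

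Of the 5 radial spoke genes 1 was called. Rsph4a, a spoke head protein, stood at 7.33, 5.57 and 6.24 RPKM in input and 3.10, 2.63 and 1.91 RPKM in IP. It had the smallest p among the members (log2 fold -1.06, SE 0.23, adjusted p = 0.0399), yet the call ended after median scaling (0.0782) or quantile normalization (0.0799) and held in 1 of 6 omissions of a library, that of IP 1 (0.0190). Rsph1, also of the spoke head, stood at 15.7, 14.1 and 7.96 RPKM in input and 5.57, 6.66 and 4.88 RPKM in IP, again without overlap (log2 fold -0.98, adjusted p = 0.0742). Rsph9, the third spoke head gene listed, had 16.9, 16.001 and 5.26 RPKM in input and 19.0, 12.03 and 5.52 RPKM in IP. Both of its challenge 3 libraries were low, and the log2 fold was -0.06 (95% interval -1.14 to 1.03).

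The spoke stalk genes Rsph3a and Rsph3b are near-identical copies whose reads may have been split between them, so their values are uncertain. Rsph3a, the most abundant axoneme member, stood at 20.2, 22.3 and 11.5 RPKM in input and 20.8, 22.4 and 17.3 RPKM in IP (log2 fold 0.20, with adjusted p = 0.706). The fold of Rsph3b was -0.31 (adjusted p = 0.420). In both the fractions overlapped.

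Dynein arm genes were weakly expressed, and Dnahc5 lay near the smallest value of the table, 0.101 RPKM. Of the 4 listed, only Dnahc1, a heavy chain of the inner arms, passed the filter, with 3.18, 2.21 and 1.59 RPKM in input and 4.54, 2.14 and 1.43 RPKM in IP (log2 fold 0.09, with adjusted p = 0.898). Dnaic2, an intermediate chain of the outer arms, stood at 1.18, 0.881 and 0.474 RPKM in input and 0.780, 0.348 and 0.349 RPKM in IP, lower in IP in all 3 challenges. The outer arm genes Dnahc5 (0.189 to 0.268 RPKM) and Dnaic1 (0.284 to 1.28 RPKM) overlapped between fractions.

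The 3 tektins had folds of both signs, with 0 called. Tekt1 stood at 3.16, 2.07 and 1.47 RPKM in input and 1.36, 1.96 and 0.441 RPKM in IP (log2 fold -0.55, with adjusted p = 0.313). Tekt5, which is best known from sperm, stood at 2.60, 5.98 and 5.89 RPKM in input and 3.99, 10.3 and 8.44 RPKM in IP. It was above its input in all 3 challenges, with overlapping fractions (log2 fold 0.54, adjusted p = 0.40). For Tekt2 the fold was -0.21 (adjusted p = 0.797).

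Spag is a name shared by unrelated sperm-associated antigens. Spag1, which helps to assemble dynein arms, stood at 3.54, 4.08 and 4.54 RPKM in input and 3.00, 1.94 and 1.48 RPKM in IP. The fractions did not overlap (log2 fold -0.71, adjusted p = 0.117), and it was called without IP 1 (-0.90, adjusted p = 0.0347). Spag6, a central pair protein whose symbol RefSeq uses for 1 gene and lists as a synonym of Spag6l, gave a fold of -0.15 (adjusted p = 0.732) and may hold reads of both. Outside the axoneme, Spag7 was the most abundant member with this name, at 75.5, 84.8 and 52.1 RPKM in input and 37.9, 65.3 and 48.9 RPKM in IP (log2 fold -0.48, with adjusted p = 0.330). Spag9, a scaffold of JNK signalling (-0.39), Spag4, a nuclear envelope protein (0.00), and the spindle protein gene Spag5 (0.08, below the filter) overlapped between fractions.

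Transport genes were more abundant than axoneme genes, with a median of 11.2 RPKM per gene over the 6 libraries against 3.29 RPKM. All 20 passed the filter. Of the 12 Ift genes, 10 belong to the IFT-B complex, which carries cargo towards the tip. Ift52, Ift57, Ift81 and Ift88, all among these 10, had every IP library below every input. They make up 33.3% of the 12 Ift genes, against 23.5% of all entries. Ift81, which binds tubulin together with Ift74, stood at 22.2, 20.8 and 20.1 RPKM in input and 14.0, 13.3 and 9.85 RPKM in IP. The inputs were close together, and the log2 fold was -0.73 (SE 0.21, adjusted p = 0.0812, and 0.0359 without IP 1). Ift52 stood at 18.7, 23.8 and 21.1 RPKM in input and 18.1, 13.2 and 10.04 RPKM in IP. IP 1 lay close to its input there and the other IP libraries well below theirs (log2 fold -0.62, adjusted p = 0.169, and 0.0405 without IP 1).

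Ift20, an IFT-B subunit that also sits at the Golgi, was the most abundant of all 42 members, at 71.3, 80.9 and 96.3 RPKM in input and 31.3, 137 and 165 RPKM in IP. IP 1 was below every input and the other IP libraries above every input. Over the 6 libraries the log2 fold was 0.12 (95% interval -1.08 to 1.32, adjusted p = 0.926). Without IP 1 it was 0.86 (adjusted p = 0.0455, and 0.0356 with median scaling added), the only higher call among the members in that omission. There 5 members were called lower, namely Ccdc153, Rsph4a, Spag1, Ift52 and Ift81, of 38 tested, against 10.2% lower and 3.62% higher among all entries.

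**Figure D3:**
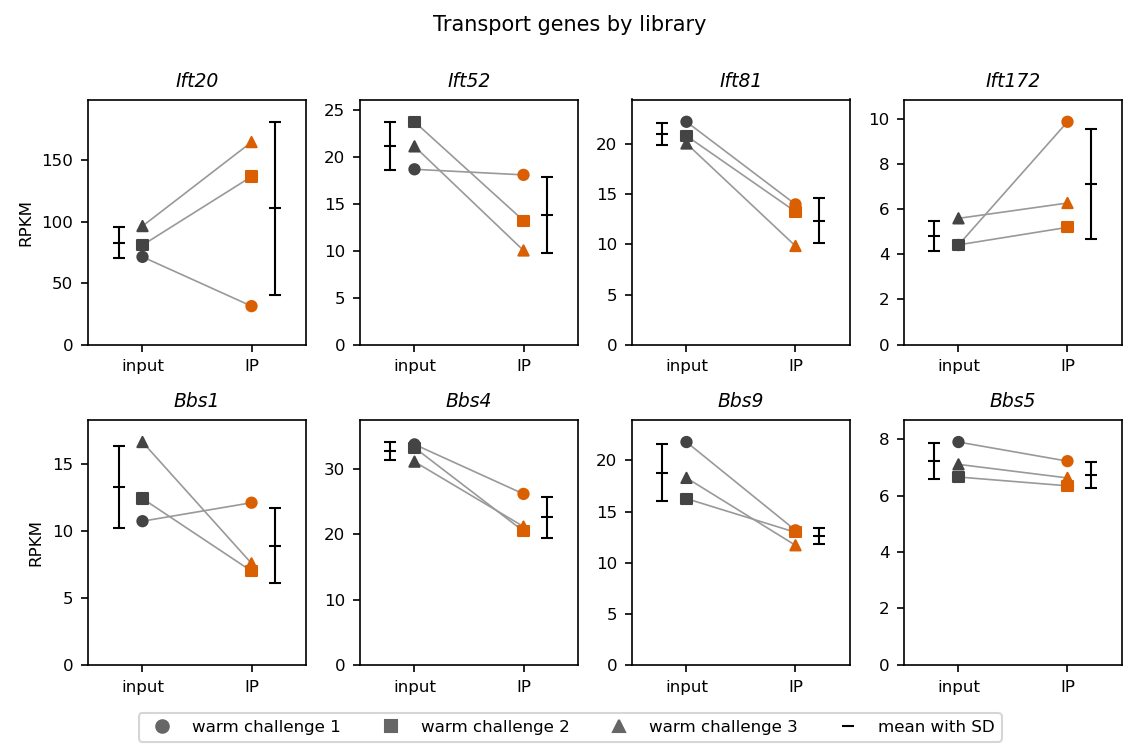
RPKM (y axis, from 0, with its own scale per gene) of 8 transport genes in input and IP, drawn as for the axoneme genes (bars are means with SD, n = 3). In Ift20 the library IP 1 lies below the inputs and IP 2 and IP 3 above them, and in Bbs4 and Bbs9 every IP library lies below every input.

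Neither of the IFT-A genes listed, whose complex returns trains from the tip, was called. Ift140 stood at 2.24, 2.53 and 3.28 RPKM in input and 3.49, 4.25 and 3.52 RPKM in IP, the only member with every IP library above every input (log2 fold 0.37, adjusted p = 0.322). For Ift122 the fold was -0.01 (adjusted p = 0.996), with IP 1 at 6.65 RPKM and the other IP libraries at 2.91 and 2.75 RPKM. Ift172, a large IFT-B subunit, stood at 4.41, 4.42 and 5.59 RPKM in input and 9.87, 5.19 and 6.27 RPKM in IP, above its input in all 3 challenges (log2 fold 0.45, adjusted p = 0.323). Ift57 (-0.43) and Ift88 (-0.42) had every IP library below every input, and Ift46 (-0.05), Ift27 (0.09), Ift74 (-0.37) and Ift80 (-0.20) overlapped between fractions.

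Ift proteins are named after their approximate molecular mass, so the number in the symbol orders them by size. In challenge 1 the fold of the 12 genes followed this number, from -1.16 for Ift20 and -0.96 for Ift27 to 0.82 for Ift122 and 1.01 for Ift172 (Spearman's rho 0.82 across 12 genes). In challenges 2 and 3 it did not (rho -0.13 and -0.34), with Ift20 at 0.75 and 0.77 and Ift172 at 0.19 and 0.14. The 12 points of a challenge share the same pair of libraries, and the relation was noticed after the values were seen. Gene or transcript length was not used, and its part in these folds was not tested.

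**Figure D4:**
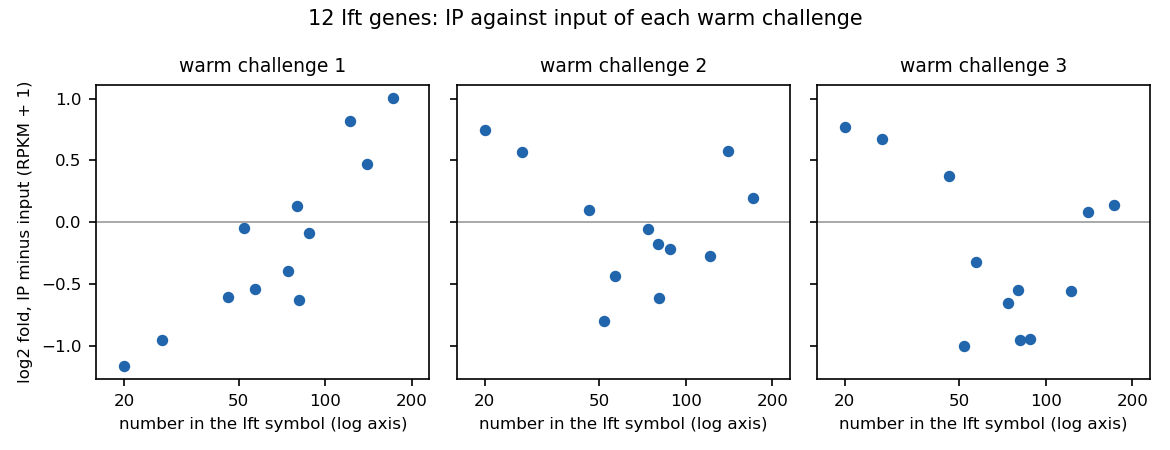
The log2 fold of IP against input (y axis, RPKM + 1) of the 12 Ift genes in each warm challenge, against the number in the gene symbol (x axis, log scale), 1 point per gene and 1 pair of libraries per panel. Points rise from -1.16 to 1.01 in challenge 1, while Ift20 lies at 0.75 and 0.77 in challenges 2 and 3.

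All 8 Bbs genes had a negative fold, from -0.54 for Bbs1 to -0.09 for Bbs5, with a median of -0.37 (-0.20 after median scaling), and 0 were called. Among all entries 9007 of 13724 had a negative fold. After median scaling Bbs5 had a fold of 0.09, the only positive one of the 8, and Bbs7 one of -0.03. Bbs4, the most abundant, stood at 33.7, 33.3 and 31.1 RPKM in input and 26.2, 20.5 and 21.2 RPKM in IP, without overlap (log2 fold -0.52, adjusted p = 0.158). Bbs9 stood at 21.8, 16.3 and 18.3 RPKM in input and 13.2, 13.0 and 11.7 RPKM in IP, also without overlap (-0.53, adjusted p = 0.156). Bbs1 stood at 10.7, 12.4 and 16.7 RPKM in input and 12.1, 7.01 and 7.59 RPKM in IP, where IP 1 was above its input and the others below (-0.54, adjusted p = 0.246). The chaperonin-like genes Bbs10 (-0.39, without overlap) and Bbs12 (-0.31), which help to assemble the BBSome, stood at 0.832 to 3.30 RPKM. Bbs2 (-0.36) and Bbs7 (-0.21) overlapped between fractions.

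Other genes of the same pathways gave 1 call. Of 78 further genes of motile cilia that were looked for, 40 were listed and 38 had no entry. Among the 40, 32 were tested and 0 called, with a median fold of -0.37 over the 40. Ccdc39, a ruler of the axoneme repeat, had the smallest p (log2 fold -1.02, adjusted p = 0.0880, and 0.0228 without IP 1), followed by Trp73, an upstream regulator of motile ciliogenesis (-0.64, adjusted p = 0.116). Of 21 Ift subunits and motors under other symbols 0 were called (median -0.13), with Cluap1, known as Ift38, at -0.74 (adjusted p = 0.0894) and Wdr34 at -0.53 (adjusted p = 0.182). Of 8 BBSome subunits and partners 1 was called lower (median -0.14). Lztfl1, which regulates BBSome traffic, stood at 24.6, 22.7 and 24.1 RPKM in input and 12.9, 12.4 and 13.6 RPKM in IP, without overlap (log2 fold -0.83, adjusted p = 0.0465, and 0.104 after median scaling). Of 40 genes of primary cilium signalling and transition zone, 34 were tested and 0 called (median -0.25), with Tulp3, an adaptor that loads receptors onto Ift trains (-0.87, adjusted p = 0.0784), and the channel gene Pkd2 (-0.75, adjusted p = 0.122) first by p.

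Among markers of other cells, calls were confined to the oligodendrocyte list over the 6 libraries. Of 11 oligodendrocyte markers 8 were called lower in IP (72.7%, against 3.29% of all entries tested). In 10 every IP library lay below every input (90.9%, against 23.5% of all entries). Their summed level was 1120 to 1236 RPKM in input and 381 to 565 RPKM in IP. Of 11 astrocyte markers 0 were called (314 to 415 and 274 to 320 RPKM), and Slc1a2 had a fold of -0.51. Folds of astrocyte markers were negative in 10 of 11 (median -0.44). Without IP 1, 3 astrocyte markers were called lower, namely Aqp4 (-1.38, adjusted p = 0.0210), Gfap (-1.43, adjusted p = 0.00994) and Fgfr3 (-0.90, adjusted p = 0.0381). In that omission 10.2% of all entries were called lower and 3.62% higher. Aqp4 was also called with the warm challenge as a block (adjusted p = 0.0400). Choroid plexus markers were listed in 8 of 12 with 0 called (62.7 to 69.7 and 46.0 to 74.0 RPKM). Of these, Enpp2 had a fold of -0.74 (adjusted p = 0.113) and Ttr one of -0.01. Tanycyte markers were listed in 8 of 10 with 0 called (43.7 to 92.1 and 26.0 to 104 RPKM), with Ptn at -0.28 and Crym at 0.02. Ependymal markers outside the axoneme were listed in 5 of 11 with 0 called (22.7 to 54.9 and 25.6 to 46.5 RPKM), with S100a6 at -0.22 and Sox2 at 0.81 (adjusted p = 0.160). Of these 5 folds 4 were negative, and Tmem107 had the smallest p (-1.09, adjusted p = 0.0721), with every IP library below every input. Neuron markers were listed in 11 of 12 with 0 called (4895 to 6556 and 4834 to 8413 RPKM). Their folds were positive in 10 of 11 (median 0.52). In 4 of them every IP library lay above every input (36.4%, against 6.46% of all entries). Microglia markers (6 of 7 listed, Aif1 and C1qb the highest) and endothelial markers (3 of 7, Itm2a and Slco1c1) summed to 14.8 RPKM or less in every library with 0 called. Without IP 1, Enpp2 was called lower (-0.94, adjusted p = 0.0252), and Sox2 (1.08, adjusted p = 0.0438) and 2 neuron markers higher. The part of these cells in the folds of the cilium genes was not tested.

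With the warm challenge as a block, Ccdc153 (adjusted p = 0.0207) and Rsph4a (0.0408) were again the members called, where 5.32% of all entries were.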

How the data were processed

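What the authors deposited is linear RPKM by gene, per the file headers, for 3 input and 3 IP libraries held in separate columns. The submitters' processing notes name mm9 as the build; how reads were aligned, counted and annotated is not given in the sources used here. Before sequencing the cDNA was amplified, per the labels' protocols. Every listed value is above 0.1 RPKM, so genes below that in any library are missed, and a strong loss in 1 fraction can be among them. Depth is unknown: with input 1 as the reference for the other 5 libraries, at most 17.4% of pairs of values under 0.6 RPKM stood in whole-number proportion (whole numbers to 4, tolerance 1%), and whole reads were not recovered.

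Values were tested as log2(RPKM + 1) for 12328 entries with limma 3.58.1 (mean-variance trend, two-sided, no block) in R 4.3.3, with p-values adjusted over all entries tested. Python 3.11.15 with pandas 2.3.3 and numpy 2.4.6 made counts and motif searches, and matplotlib 3.10.9 the plots. The test was checked on simulated data. Alternatives were pseudocounts of 0.1 and 5 RPKM, no filter, a filter of 5 RPKM, median scaling, quantile normalization, no trend, the replicate block and the omission of each library. Members and gene lists were chosen with earlier results of these data known. Values in every library are given for Foxj1, Ccdc153, Dynlrb2, Tmem212, members called, and in each family the 2 members with the largest absolute fold and the most abundant one. Other genes with library values, and the marker Tmem107, were added after their values were seen. From each further list the 2 genes with the smallest p or those called, and from each marker list the 2 most abundant, are named. 1 item that this rule names is not reported here. Libraries of 1 warm challenge share its number in the labels and were taken as paired. Deviations from the group means correlated across genes by 0.05, 0.61 and 0.27 within challenges 1, 2 and 3, and by -0.52 to 0.18 between challenges. Input 1 correlated more with IP 2 (0.16) than with IP 1, so these values do not show the pairing of challenge 1.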

Additional observations from a re-analysis of the deposited data

How the results depend on the processing

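Both member calls, Ccdc153 and Rsph4a, were also made with a pseudocount of 5 RPKM and in the replicate block (2 calls each), and the block changed no call of a member. Calls among members and among axoneme genes were 1 with a pseudocount of 0.1 RPKM, no filter, a filter of 5 RPKM or no trend (Rsph4a in each). They were 0 with median scaling or quantile normalization. The filter of 5 RPKM left 24 members and 6 axoneme genes to test, and Ccdc153 was not tested there. Leaving out 1 library gave 0 to 6 calls among members, 0 to 3 among axoneme genes and 0 to 3 among transport genes. The highest came each time without IP 1, where 10.2% of all entries were called lower and 3.62% higher. Transport genes had 0 calls under every other single change of setting or library. With median scaling added to the omission of IP 1, chosen after seeing the data, members had 2 calls (Rsph4a and Ift20). The further cilium lists had 1 call (Lztfl1), and 0 with no filter, no trend or either scaling. They had 0 to 9 calls when a library was left out, and 2 with median scaling and no IP 1. The 9 calls came without IP 1 (8 lower and 1 higher of 91 tested), against the same 10.2% and 3.62% of all entries. The axoneme median of -0.31 ran from -0.59 (without input 3) to -0.21 (without input 2) when a library was left out, and was -0.14 to -0.33 under the other single changes to fit or values, and the transport median of -0.33 became -0.056 after quantile normalization. No median changed sign. Of 263 values for 18 named members under the alternatives, 239 kept their side of the threshold, 18 lost a call and 6 gained 1. The sign turned in 6, in the uncalled genes Dnahc1, Rsph3a and Ift20. The cause of these changes was not tested.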

Other observations

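Levels of axoneme genes were low in input 3, a pattern noticed after the values were seen and given without a test. Input 3 was the lowest of the 3 inputs in 13 of 18 axoneme genes (72.2%) and in 27 of the 40 further motile cilium genes (67.5%), against 6 of 20 transport genes (30.0%) and 36.8% of all entries. The median of input 3 minus the mean of inputs 1 and 2 on the log2 scale was -0.52 for axoneme genes, -0.01 for transport genes and 0.02 for all entries. The like median of IP 3 minus the mean of IP 1 and 2 was -0.29, -0.17 and -0.01. Summed axoneme RPKM was 134, 127 and 77.0 in inputs 1, 2 and 3, while summed transport RPKM was 320, 334 and 340. The same order appeared in Dynlrb2 (18.8, 10.6 and 2.54 RPKM), in 1700009P17Rik, a cilium gene outside the members (9.10, 4.84 and 1.37 RPKM), and in S100a6, an ependymal marker outside the axoneme (24.6, 11.1 and 3.18 RPKM). Crym, a tanycyte marker, had the opposite order (3.43, 6.68 and 32.5 RPKM). Tissue taken in each dissection was not measured, and its part in these levels was not tested.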
